A study of Mus musculus with 48 samples.

Results

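Transcripts of 10 enzymes of the methionine cycle, transsulfuration and the reactions next to them were followed in mouse liver: *Mat1a*, *Mat2a*, *Bhmt*, *Bhmt2*, *Gnmt*, *Ahcy*, *Cbs*, *Cth*, *Pemt* and *Mthfd1*. The genes were taken by name from the pathway, with earlier results of these data known. All probe sets that the array annotation gives to a single one of them were read, and the probe set with the highest mean over all arrays was the readout of a gene. Of the 10 genes, 9 had a probe set, 12 probe sets in all among the 45141 of the array, and these 9 were genes of 17097 named by a probe set of 1 gene. *Mat2a* had none in the annotation used and was not analysed here. The livers came from 24 mice of 11 weeks of age, with 1 array per mouse and all were F1 C57BL6J/FVB hybrids kept on AIN93G pellets. Ercc1Δ/- mice carry 1 truncated and 1 disrupted allele of *Ercc1* in every cell, which impairs several DNA repair pathways. They ate freely (Control, n = 5), ate freely from a diet with 14 ppm of encapsulated rapamycin (Rapa 14 ppm, n = 4) or were restricted to 30% less food (DR 30%, n = 5). Of the wild-type littermates, 5 ate freely (WT-Control) and 5 were restricted in the same way (WT-DR). The reduction of food began at 7 weeks and was complete at 9 weeks, and the meal was given just before the dark period. The hour at which the livers were taken and the age at which these mice started rapamycin were not given in the sources used here.

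The methionine cycle makes S-adenosylmethionine, the methyl donor of the cell, and liver is its main site. Transfer of the methyl group leaves S-adenosylhomocysteine, which is split into adenosine and homocysteine. Homocysteine is then either given a methyl group again, by folate or by betaine, or passed through cystathionine to cysteine, which is the transsulfuration route.

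All values are on the log2 scale of RMA, in which a step of 1 is a doubling of the array signal. The medians of the 24 arrays lay between 4.16 and 4.21. *Ercc1* itself was at 6.68 ± 0.11 (mean ± SD) in the wild-type mice fed ad libitum and 6.29 ± 0.18 in the restricted ones. In the Ercc1Δ/- mice it was at 5.37 ± 0.10 on control diet, 5.12 ± 0.12 with rapamycin and 4.96 ± 0.22 under restriction, so every group with the mutant genotype was below both wild-type groups. The 8 hepatocyte markers, albumin among them, averaged 13.25 to 13.30 in the 5 groups, while markers of kidney, exocrine pancreas and cholangiocytes averaged no more than 4.24. RNA of whole liver was measured, and fewer cells of a type cannot be told apart from less RNA per cell.

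The measured genes are among the brightest of the liver array. The means of their 12 probe sets lay at or above percentile 95.54 of all probe sets, and the highest single value, 13.87 for *Bhmt*, stood against 14.51 for the brightest value of the table. The 5 group means differed most for *Mat1a*, by 0.60, followed by *Pemt* (0.56), *Cth* (0.44), *Mthfd1* (0.42), *Gnmt* (0.36) and *Ahcy* (0.35). They lay closest together for *Bhmt2* (0.24), *Bhmt* (0.21) and *Cbs* (0.20). Levels are compared between groups for each gene and not between genes, since probe sets differ in brightness.

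**Figure D1:**
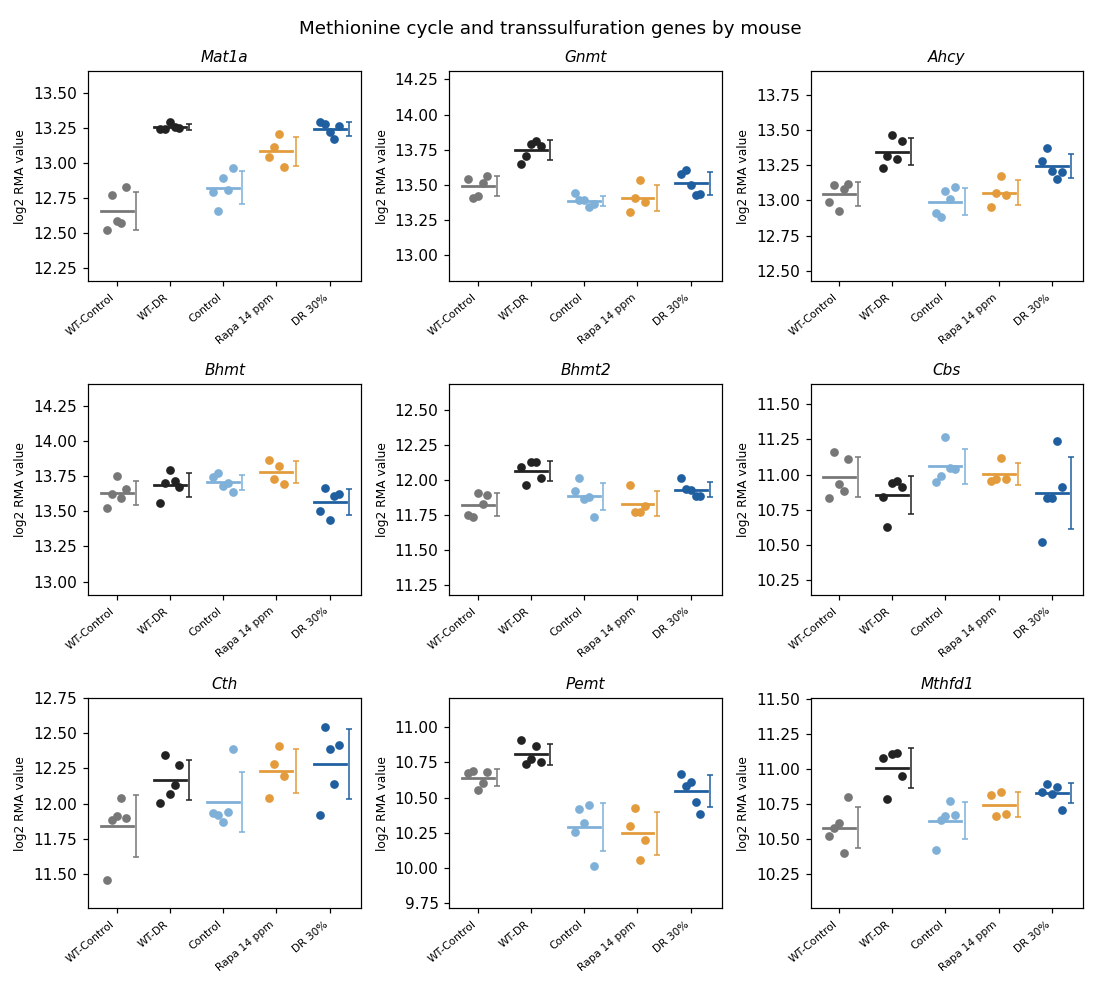
Log2 RMA value (y-axis, the same span of 1.5 in every panel) of the 9 measured genes by group, with 1 point per mouse, the group mean as a line and the SD as a bar. *Mat1a* lay between 13.17 and 13.29 in all 10 restricted mice and at 12.97 or lower in all 10 mice fed ad libitum without rapamycin.

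Promoter sequence was at hand for 7 of the 9 measured genes. The stretches of 4 genes that were higher in restricted wild-type mice and of 2 that did not pass the test there are shown, since they allow the members that moved together to be set beside those that did not. Each runs 5′ to 3′ from 250 bases before to 50 bases after the start of the transcript, as RefSeq gives it on GRCm38.p6. *Ahcy* lies at chr2:155074448-155074747 (reverse strand), *Gnmt* at chr17:46729116-46729415 (reverse), *Mthfd1* at chr12:76254982-76255281 (forward), *Bhmt2* at chr13:93674253-93674552 (reverse), *Bhmt* at chr13:93637709-93638008 (reverse) and *Cbs* at chr17:31637156-31637455 (reverse). Capitals mark the matches to the motifs searched.
Ahcy: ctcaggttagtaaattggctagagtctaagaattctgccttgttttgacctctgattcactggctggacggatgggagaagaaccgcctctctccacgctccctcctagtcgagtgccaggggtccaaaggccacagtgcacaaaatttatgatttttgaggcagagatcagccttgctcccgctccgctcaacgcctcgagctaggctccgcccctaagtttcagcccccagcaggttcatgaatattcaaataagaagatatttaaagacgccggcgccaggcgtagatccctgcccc
Gnmt: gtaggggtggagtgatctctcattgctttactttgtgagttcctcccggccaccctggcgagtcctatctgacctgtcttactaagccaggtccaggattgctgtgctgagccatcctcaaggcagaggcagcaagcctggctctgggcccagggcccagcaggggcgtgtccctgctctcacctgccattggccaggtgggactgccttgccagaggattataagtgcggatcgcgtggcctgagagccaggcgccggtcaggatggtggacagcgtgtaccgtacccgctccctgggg
Mthfd1: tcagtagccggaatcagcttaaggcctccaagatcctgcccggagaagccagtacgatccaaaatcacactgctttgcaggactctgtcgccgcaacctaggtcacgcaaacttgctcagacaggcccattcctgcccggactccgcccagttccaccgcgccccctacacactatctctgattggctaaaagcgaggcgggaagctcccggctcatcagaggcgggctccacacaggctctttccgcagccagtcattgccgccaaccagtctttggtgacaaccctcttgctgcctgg
Bhmt2: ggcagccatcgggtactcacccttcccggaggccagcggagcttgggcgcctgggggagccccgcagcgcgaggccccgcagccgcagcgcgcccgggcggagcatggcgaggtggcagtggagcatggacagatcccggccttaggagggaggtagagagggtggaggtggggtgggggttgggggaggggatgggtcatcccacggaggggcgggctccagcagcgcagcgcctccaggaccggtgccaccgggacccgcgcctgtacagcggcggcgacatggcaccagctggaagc
Bhmt: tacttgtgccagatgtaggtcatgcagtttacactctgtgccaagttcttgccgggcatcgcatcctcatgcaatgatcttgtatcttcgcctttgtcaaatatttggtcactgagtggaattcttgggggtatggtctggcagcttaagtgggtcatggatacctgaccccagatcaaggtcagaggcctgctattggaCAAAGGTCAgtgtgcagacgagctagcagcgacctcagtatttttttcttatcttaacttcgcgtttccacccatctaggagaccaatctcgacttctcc
Cbs: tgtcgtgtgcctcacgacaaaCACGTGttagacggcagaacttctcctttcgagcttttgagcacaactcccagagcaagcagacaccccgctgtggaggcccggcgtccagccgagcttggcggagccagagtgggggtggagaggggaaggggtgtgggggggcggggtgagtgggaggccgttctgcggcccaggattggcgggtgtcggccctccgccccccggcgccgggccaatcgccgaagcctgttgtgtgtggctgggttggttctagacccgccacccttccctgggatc

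Both strands of 8 promoters of these 7 genes, *Pemt* having 2, were searched for 6 motifs. The E-box CACGTG was found in *Cbs* alone, at bases 22 to 27, and is held by 7.15% of the 32851 promoters of the same length. A part of the direct repeat that HNF4 binds, TGACCTTTG, was found in *Bhmt* alone, at bases 201 to 209, against 0.478% of all promoters. These letters are too few to hold the whole repeat. The cyclic AMP element TGACGTCA (1.79% of all promoters), the shorter TGACG that lies within it (20.8%), the core of the amino acid response element, TGATGNAA (3.97%), and the TATA box TATAAA (13.6%) had no match in the 8 stretches. These are matches of letters only, and no match says only that the letters are not in this window.

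Dietary restriction of wild-type mice was compared first. In WT-DR, 5 of the 9 genes were higher than in WT-Control at a Benjamini-Hochberg FDR under 0.05 in limma (*Mat1a*, *Mthfd1*, *Ahcy*, *Gnmt* and *Bhmt2*) and none was lower, with fold changes of 1.18 to 1.51. Of all probe sets, 10.3% were higher and 9.36% lower by this rule. Bright probe sets passed more often, and among the 1755 with a mean at least that of the dimmest readout 23.9% were higher and 18.3% lower. When a fold change of at least 1.5 was also asked for, the rule of a differentially expressed gene (DEG), *Mat1a* was the 1 gene left, with 6.04% of all probe sets in either direction. The median change of the 9 genes was 0.26, that of all probe sets -0.01 and that of the bright ones 0.03.

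*Mat1a* encodes the liver form of methionine adenosyltransferase, which makes S-adenosylmethionine from methionine. It was at 12.52, 12.77, 12.58, 12.57 and 12.83 in the 5 WT-Control mice and at 13.24, 13.24, 13.29, 13.26 and 13.25 in the 5 WT-DR mice. The groups did not overlap, and the restricted mice lay very close together, with an SD of 0.02 against 0.14 in WT-Control. The difference was 0.60 (SE 0.07, adjusted p = 7.74e-07, limma), a 1.51-fold increase that lay just above the fold change threshold. Without WT-Control mouse 401, 403 or 404 the difference was 0.57, 0.58 or 0.58, just below that threshold (0.585 on the log2 scale), at adjusted p of 5.64e-06 or less.

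*Gnmt* encodes glycine N-methyltransferase, which uses S-adenosylmethionine to methylate glycine and is very abundant in hepatocytes. Its values were 13.54, 13.41, 13.42, 13.51 and 13.57 in WT-Control and 13.65, 13.70, 13.79, 13.81 and 13.78 in WT-DR. Every restricted mouse was above every control, with a difference of 0.26 (SE 0.06, adjusted p = 0.00178). *Ahcy* encodes the hydrolase that splits S-adenosylhomocysteine, the product of all these methyl transfers. It was at 12.99, 13.11, 12.92, 13.08 and 13.12 in WT-Control and at 13.23, 13.31, 13.46, 13.30 and 13.42 in WT-DR. These groups did not overlap either, and the difference was 0.30 (SE 0.06, adjusted p = 0.00147).

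*Bhmt* and *Bhmt2* encode neighbouring methyltransferases that return homocysteine to methionine, with betaine and with S-methylmethionine as the preferred donor. *Bhmt2* was at 11.75, 11.74, 11.91, 11.83 and 11.90 in WT-Control and at 12.09, 11.96, 12.12, 12.13 and 12.02 in WT-DR, without overlap (0.24, SE 0.06, adjusted p = 0.00516). Its other probe set gave 0.29 (SE 0.06, adjusted p = 0.00195). *Bhmt* was at 13.52, 13.63, 13.75, 13.60 and 13.66 in WT-Control and at 13.56, 13.70, 13.80, 13.72 and 13.67 in WT-DR. These groups overlapped almost wholly, and the difference of 0.06 had a 95% confidence interval from -0.06 to 0.18 (adjusted p = 0.557).

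*Mthfd1* encodes the cytosolic enzyme with 3 activities that interconverts the one-carbon forms of folate. It was at 10.52, 10.58, 10.62, 10.40 and 10.80 in WT-Control and at 11.08, 10.79, 11.11, 11.12 and 10.95 in WT-DR. The lowest restricted mouse was just under the highest control, and the difference was 0.42 (SE 0.08, adjusted p = 0.000419). The second probe set of *Mthfd1* gave a smaller difference, 0.23 (SE 0.08, adjusted p = 0.0432).

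The transsulfuration enzymes did not pass the test in wild-type mice in the model of all probe sets, *Cth* by a small margin. *Cbs*, which joins homocysteine and serine to cystathionine, was at 10.84, 11.16, 10.93, 10.89 and 11.11 in WT-Control and at 10.84, 10.63, 10.94, 10.96 and 10.91 in WT-DR, with a difference of -0.13 (95% interval -0.34 to 0.08, adjusted p = 0.411). *Cth*, which splits cystathionine to release cysteine, was at 11.46, 11.89, 11.91, 12.04 and 11.90 in WT-Control and at 12.01, 12.35, 12.07, 12.13 and 12.28 in WT-DR. Its difference of 0.33 was larger than that of *Ahcy*, but so was its spread, with an interval from 0.08 to 0.58 (adjusted p = 0.0624). *Cth* did pass in the values by gene (0.40, adjusted p = 0.0219), when dim probe sets were left out (adjusted p = 0.0429) and without mouse 327, 362, 404 or 421 (adjusted p = 0.0396 to 0.0487), so that its call rested on these choices. *Pemt*, which makes phosphatidylcholine with 3 methyl groups from S-adenosylmethionine, was at 10.68, 10.69, 10.55, 10.60 and 10.69 in WT-Control and at 10.91, 10.74, 10.77, 10.87 and 10.76 in WT-DR. All restricted mice were above all controls, yet the difference of 0.17 (SE 0.08) did not pass after adjustment (adjusted p = 0.15).

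Restriction of Ercc1Δ/- mice gave higher values of *Mat1a*, *Ahcy* and *Pemt* at FDR under 0.05, 3 of the 9 genes, and no lower one. Of all probe sets 5.08% were higher and 3.7% lower, and of the bright ones 11.4% were higher and 8.83% lower. None of the 9 genes was a DEG, against 2.44% of all probe sets. At an unadjusted p under 0.05 there were 7 of 9, in both directions, and also 7 of 9 in WT-DR against WT-Control. The share of all probe sets by that rule was not taken, so these counts are descriptions only. The median change of the 9 genes was 0.19, beside -0.01 for all probe sets and 0.04 for the bright ones.

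*Mat1a* was at 12.79, 12.66, 12.89, 12.81 and 12.97 in Control and at 13.29, 13.27, 13.22, 13.17 and 13.26 in DR 30%. The lowest restricted mouse was above the highest mouse fed ad libitum, with a difference of 0.42 (SE 0.07, adjusted p = 0.000238), a fold change of 1.34. *Ahcy* was at 12.91, 12.88, 13.07, 13.01 and 13.09 in Control and at 13.28, 13.38, 13.21, 13.15 and 13.20 in DR 30%, also without overlap (0.25, SE 0.06, adjusted p = 0.0138). The values of *Pemt* were 10.26, 10.42, 10.32, 10.45 and 10.01 in Control and 10.67, 10.59, 10.61, 10.47 and 10.39 in DR 30%. Here 1 restricted mouse lay within the range of the controls, and the difference was 0.25 (SE 0.08, adjusted p = 0.0461). *Pemt* lost the call without any one of 17 of the 24 mice, with adjusted p up to 0.125 (without Control mouse 327), when only Control and DR 30% were fitted (adjusted p = 0.131, and 0.0511 for *Ahcy*), after renewed quantile normalization (adjusted p = 0.0504) and in the values by gene, where its difference was smaller (0.16, adjusted p = 0.283).

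The other genes did not pass the test in Ercc1Δ/- mice. *Mthfd1* was at 10.42, 10.64, 10.67, 10.77 and 10.67 in Control and at 10.83, 10.89, 10.82, 10.87 and 10.71 in DR 30% (0.19, 95% interval 0.03 to 0.36, adjusted p = 0.137). *Gnmt* was at 13.44, 13.39, 13.39, 13.34 and 13.36 in Control and at 13.58, 13.61, 13.50, 13.43 and 13.44 in DR 30% (0.12, interval 0.01 to 0.24, adjusted p = 0.185). For both genes the restricted mice lay at the upper end of the range of the controls or above it. *Bhmt2* differed by 0.05 (interval -0.07 to 0.17), and by 0.17 in its second probe set (interval 0.04 to 0.30, adjusted p = 0.103). *Bhmt* was at 13.74, 13.77, 13.68, 13.70 and 13.64 in Control and at 13.50, 13.66, 13.44, 13.61 and 13.62 in DR 30%, the estimate being below 0 (-0.14, interval -0.26 to -0.02, adjusted p = 0.155).

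*Cbs* and *Cth* had the widest spread of all members in DR 30%. The DR 30% mice were at 10.52, 10.84, 10.84, 11.24 and 10.91 for *Cbs*, and the Control mice at 10.95, 10.99, 11.27, 11.05 and 11.04. Of the restricted mice 4 were below all controls and 1 was near the highest of them (difference -0.19, interval -0.39 to 0.02, adjusted p = 0.283). The second probe set of *Cbs* gave -0.29 (interval -0.54 to -0.04, adjusted p = 0.141), and the main one ran from -0.28 without DR 30% mouse 368 to -0.10 without DR 30% mouse 362. *Cth* was at 11.93, 11.92, 11.87, 11.94 and 12.39 in Control and at 11.92, 12.55, 12.39, 12.14 and 12.42 in DR 30% (0.27, interval 0.02 to 0.53, adjusted p = 0.184). In *Cth* 1 Control mouse was as high as the restricted mice and 1 restricted mouse as low as the controls.

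**Figure D2:**
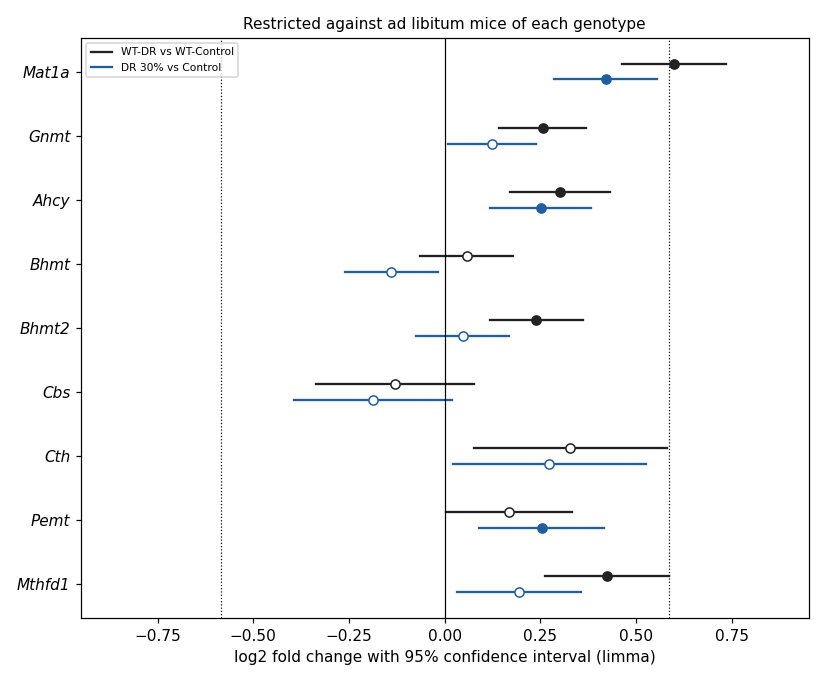
Log2 fold change (x-axis) of each gene with its 95% confidence interval from limma, for restricted against ad libitum fed wild-type mice (black) and Ercc1Δ/- mice (blue). Filled points passed FDR under 0.05, and dotted lines mark a fold change of 1.5 in either direction, which *Mat1a* passed in WT mice (0.60).

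Whether the response to restriction differed between the genotypes was asked of the interaction of restriction and genotype. No member passed (limma), and 3 of 9 had an unadjusted p under 0.05, a count for which no share of all probe sets was taken. By the DEG rule 0.802% of all probe sets passed, and 1.06% did at any fold change. The interaction was -0.18 for *Mat1a* (95% interval -0.37 to 0.01, adjusted p = 0.402), -0.23 for *Mthfd1* (-0.46 to -0.00, adjusted p = 0.355), -0.20 for *Bhmt* (-0.37 to -0.03, adjusted p = 0.28) and -0.19 for *Bhmt2* (-0.36 to -0.02, adjusted p = 0.294). The second probe set of *Mthfd1* gave a much smaller interaction, -0.04 (-0.27 to 0.19), and that of *Bhmt2* gave -0.12 (-0.31 to 0.06). *Ahcy* was at -0.05 (-0.24 to 0.13). The members that passed in 1 genotype and not in the other were therefore not shown to respond differently.

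Markers of hepatocyte zones and of other cells were read beside these results. Averaged over the 6 measured of 8 periportal markers, the 5 mice of a group lay between 10.67 and 10.81 in WT-Control and between 10.81 and 10.96 in WT-DR, and between 10.50 and 10.73 in Control and 10.76 and 10.82 in DR 30%. In WT mice 4 of the 6 were higher and 1 lower at FDR under 0.05 (limma), and in Ercc1Δ/- mice 1 was higher. The lower one, *Cyp2f2*, had the largest change of the list in WT mice (-1.01, adjusted p = 5.41e-07). Of the higher ones, *Pck1* (0.64, adjusted p = 0.00274) had a mean of only 3.26, near the lowest value of the table, 2.22. The periportal average thus rests in part on a dim probe set and holds changes in both directions. The average of 7 pericentral markers was 9.77 to 10.09 in WT-Control and 9.53 to 9.81 in WT-DR, and 9.77 to 9.99 in Control and 9.45 to 10.10 in DR 30%. Of the 7, 2 were lower in WT-DR, *Cyp1a2* (-1.49, adjusted p = 0.0004) and *Rgn* (-0.29, adjusted p = 0.00942), and none was higher (limma). *Cyp1a2* alone passed in DR 30%, and was lower (-0.97, adjusted p = 0.0271). The average of 6 macrophage and Kupffer cell markers was 8.33 to 8.68 in WT-Control, 7.64 to 8.21 in WT-DR, 8.49 to 9.10 in Control and 8.38 to 9.24 in DR 30%. Of the 6, *Adgre1* (-0.93, adjusted p = 0.000123) and *Clec4f* (-0.71, adjusted p = 0.000529) were lower in WT-DR, and none passed in DR 30%. No hepatocyte marker passed the test in any comparison. The part of zonation and cell makeup in the changes of the 9 genes was not tested.

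Between the genotypes on ad libitum food, *Pemt* was the 1 gene of 9 that passed. It was 0.35 lower in Control than in WT-Control (log2 change -0.35, SE 0.08, adjusted p = 0.00658), and the highest Control mouse, at 10.45, was under the lowest WT-Control mouse, at 10.55. In the values by gene it missed the threshold (-0.28, adjusted p = 0.0505). By FDR 4.18% of all probe sets were higher and 3.14% lower in Control, and of the bright ones 5.01% were higher and 4.44% lower. No member was a DEG, while 2.52% of all probe sets were. *Mat1a* had an estimate above 0 (0.17, 95% interval 0.03 to 0.30, adjusted p = 0.131), and 2 of the 5 Control mice were above the highest WT-Control mouse. *Gnmt* had one below 0 (-0.10, interval -0.22 to 0.01, adjusted p = 0.296). Of 3 measured neutrophil markers, *S100a8* (1.48, adjusted p = 1.89e-05) and *S100a9* (1.47, adjusted p = 9.51e-06) were higher in Control, and their list averaged 3.81 to 4.09 in WT-Control and 4.67 to 5.21 in Control. Of the 6 macrophage and Kupffer cell markers, 2 were higher. The part of these cells in the value of *Pemt* was not tested. The median over the 9 genes was 0.06, beside -0.01 over all probe sets.

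On restricted food, *Pemt* and *Gnmt* were lower in DR 30% than in WT-DR, 2 of 9 genes, where 4.76% of all probe sets were lower and 7.31% higher. Of the bright probe sets 7.86% were lower and 12.7% higher. *Pemt* changed by -0.26 (SE 0.08, adjusted p = 0.0289), and the highest DR 30% mouse was at 10.67 against 10.74 for the lowest WT-DR mouse. *Gnmt* changed by -0.24 (SE 0.06, adjusted p = 0.00522), with the highest DR 30% mouse at 13.61 and the lowest WT-DR mouse at 13.65. No member was a DEG, against 3.82% of all probe sets. Of the 6 macrophage and Kupffer cell markers, 5 were higher in DR 30% (limma). Of 3 measured neutrophil markers, *S100a8* (1.27, adjusted p = 8.04e-05) and *S100a9* (1.14, adjusted p = 0.00013) were higher and *Ngp* was lower (-0.25, adjusted p = 0.0389). Of 3 measured pancreatic markers, *Cela2a* was higher (0.70, adjusted p = 0.00269), while *Ctrb1* (0.02) and *Cpa1* (0.03) did not pass. The part of these cells was not tested. *Mat1a* differed by -0.01 (95% interval -0.15 to 0.12), so that a genotype difference of more than 0.15 between the restricted groups lay outside the interval. The call of *Pemt* was lost without either of 2 DR 30% mice (368 and 369) or either of 2 WT-DR mice (421 and 424), with adjusted p up to 0.0855.

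Rapamycin was compared with the Ercc1Δ/- mice on control diet. No member passed the test in limma, by the DEG rule (0.031% of all probe sets) or at any fold change (0.0421%). At an unadjusted p under 0.05 there was 1 gene of 9, with no share of all probe sets taken for that rule. That gene was *Mat1a*, at 13.04, 13.12, 13.21 and 12.97 in the 4 rapamycin-fed mice, all of them above the highest Control mouse, though 1 by less than the second decimal (12.97 in both). The difference was 0.26 (95% interval 0.11 to 0.40, unadjusted p = 0.0011, adjusted p = 0.181). *Cth* had an estimate of 0.22 with an interval from -0.04 to 0.49, and the other 7 genes lay between -0.05 and 0.11. *Pemt*, at 10.30, 10.43, 10.06 and 10.20, stayed within the range of the Control mice (-0.05, interval -0.22 to 0.13). By their titles, the probe set values of every group but Rapa 14 ppm are a re-analysis, and the values by gene are a first re-analysis for the rapamycin-fed mice and a second one for all others, so that this difference between records and the diet cannot be told apart.

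Set directly against DR 30%, the rapamycin-fed mice were higher in *Bhmt* and lower in *Pemt*, 1 gene in each direction, where 1.94% of all probe sets were higher and 3.22% lower. Of the bright probe sets 5.53% were higher and 7.58% lower. *Bhmt* was at 13.87, 13.73, 13.82 and 13.70 in Rapa 14 ppm, above all 5 DR 30% mice (0.21, SE 0.06, adjusted p = 0.0487). *Pemt* changed by -0.30 (SE 0.08, adjusted p = 0.0374), with 1 rapamycin-fed mouse inside the range of DR 30%. No member was a DEG (1.61% of all probe sets). *Mat1a* was lower by estimate (-0.16, 95% interval -0.30 to -0.02, adjusted p = 0.21) and *Ahcy* too (-0.19, interval -0.33 to -0.05, adjusted p = 0.118). When only these groups were fitted, neither *Bhmt* (adjusted p = 0.135) nor *Pemt* (adjusted p = 0.0922) passed. *Bhmt* lost the call without any one of 17 of the 24 mice (adjusted p up to 0.175) and *Pemt* without any one of 6, which were DR 30% mice 362, 365 and 366 and Rapa 14 ppm mice 535, 537 and 538 (up to 0.164).

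**Figure D3:**
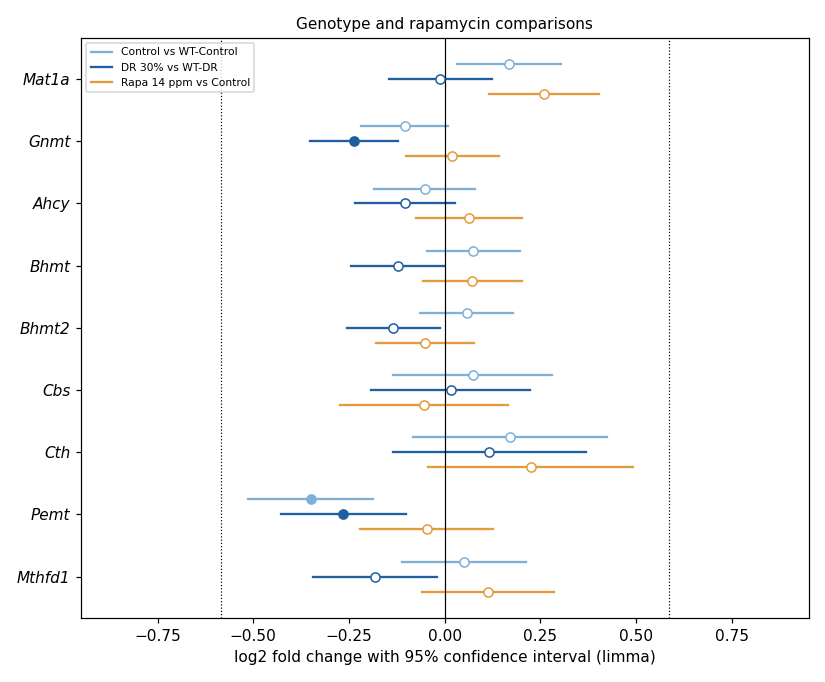
Log2 fold change (x-axis) of each gene with its 95% confidence interval from limma, for Control against WT-Control (light blue), DR 30% against WT-DR (dark blue) and Rapa 14 ppm against Control (orange). Filled points passed FDR under 0.05, which were *Pemt* in both genotype comparisons (-0.35 and -0.26) and *Gnmt* in the restricted mice (-0.24), and dotted lines mark a fold change of 1.5.

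The reactions around the cycle were read from 6 lists with 76 genes, of which 64 were measured. In WT-DR against WT-Control 14 of the 64 were higher and 15 lower at FDR under 0.05, and 5 and 5 were DEGs, beside 10.3% and 9.36% of all probe sets by FDR, 23.9% and 18.3% of the bright ones, and 6.04% DEGs. The counts of the lists are therefore given as descriptions. In DR 30% against Control 9 were higher and 3 lower, with 4 and 1 DEGs. Beside these stood 5.08% and 3.7% of all probe sets by FDR, 11.4% and 8.83% of the bright ones, and 2.44% DEGs. Control against WT-Control had 4 higher and 8 lower, beside 4.18% and 3.14% of all probe sets and 5.01% and 4.44% of the bright ones. DR 30% against WT-DR had 14 higher and 10 lower, beside 7.31% and 4.76%, and 12.7% and 7.86% of the bright ones. Rapa 14 ppm against DR 30% had 2 higher and 10 lower, beside 1.94% and 3.22%, and 5.53% and 7.58% of the bright ones. Rapa 14 ppm against Control and the interaction had none at FDR under 0.05. The lists thus held genes in both directions.

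Among the genes that regulate or use S-adenosylmethionine, 4 of 12 were higher and 2 lower in WT-DR, and 3 were higher and none lower in DR 30%. *Mat2b*, the regulatory partner of the other methionine adenosyltransferase, was higher in both, by 0.59 (SE 0.09, adjusted p = 5.34e-05) and 0.50 (SE 0.09, adjusted p = 0.000883). *As3mt*, which methylates arsenic, changed most, by 1.83 (SE 0.18, adjusted p = 2.1e-07) in WT-DR and 1.02 (SE 0.18, adjusted p = 0.000874) in DR 30%. It was also lower in Control than in WT-Control (-0.81, adjusted p = 0.00644) and in Rapa 14 ppm than in DR 30% (-1.06, adjusted p = 0.00221). In DR 30% against WT-DR it was lower by more (-1.62, adjusted p = 2.19e-06), and *Nnmt* was lower there too (-0.77, adjusted p = 0.0183). *Nnmt*, which methylates nicotinamide, was higher in WT-DR by 1.04 (SE 0.21, adjusted p = 0.00121), and *Ahcyl2*, a relative of *Ahcy*, was lower by 0.99 (log2 change -0.99, SE 0.12, adjusted p = 4.34e-06).

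In the folate list, 4 of 14 genes were higher and 1 lower in WT-DR, and 3 were higher and none lower in DR 30%. *Mthfd1l*, the mitochondrial relative of *Mthfd1* that makes formate, rose in both, by 0.80 (SE 0.13, adjusted p = 0.000156) and 1.01 (SE 0.13, adjusted p = 4.28e-05), and was lower in Rapa 14 ppm than in DR 30% (-0.68, adjusted p = 0.00661). *Mthfd2l*, another mitochondrial enzyme of the route, was a DEG in DR 30% (0.67, SE 0.19, adjusted p = 0.0262). It was also higher in DR 30% than in WT-DR (0.61, adjusted p = 0.0363, limma). In Rapa 14 ppm it was lower than in DR 30% (-0.83, adjusted p = 0.0168, limma). *Mtrr*, which reactivates methionine synthase, was a DEG in WT-DR (0.79, SE 0.17, adjusted p = 0.00206).

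Of the genes that use cysteine or oxidize sulfide, 5 of 12 were lower and 1 higher in WT-DR, and in DR 30% 1 was higher and none lower. *Gclc*, the catalytic subunit of the first step of glutathione synthesis, changed by -0.96 (SE 0.14, adjusted p = 4.38e-05) in WT-DR, *Csad*, of taurine synthesis, by -1.14 (SE 0.23, adjusted p = 0.00108) and *Chac1*, which breaks glutathione down, by -0.94 (SE 0.27, adjusted p = 0.0152). *Cdo1*, which oxidizes cysteine, was higher in WT-DR (0.25, adjusted p = 0.000569) and DR 30% (0.17, adjusted p = 0.0236). *Csad* was also lower in Control than in WT-Control (-1.51, SE 0.23, adjusted p = 0.00015). Of the betaine, sarcosine and glycine genes, 3 of 7 were lower in WT-DR and 1 in DR 30%, and none was higher.

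In the choline list, beside *Pemt* in the making of phosphatidylcholine, *Chka* showed the largest decrease of all 64 genes in both genotypes. The gene encodes choline kinase alpha, the entry of the other route to phosphatidylcholine. It changed by -1.54 (SE 0.32, adjusted p = 0.00129) in WT-DR and by -1.71 (SE 0.32, adjusted p = 0.00138) in DR 30%, and its value in Rapa 14 ppm against Control was -1.57 (SE 0.34, adjusted p = 0.0781). Of 9 choline genes, 3 were higher and 2 lower in WT-DR, and 1 was lower in DR 30%. In methionine salvage and polyamine synthesis, 2 of 10 genes were higher and 2 lower in WT-DR, and 2 higher and 1 lower in DR 30%, with *Enoph1*, an enzyme of methionine salvage, higher in both (0.57 and 0.66, adjusted p = 0.0018 and 0.00127).

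**Figure D4:**
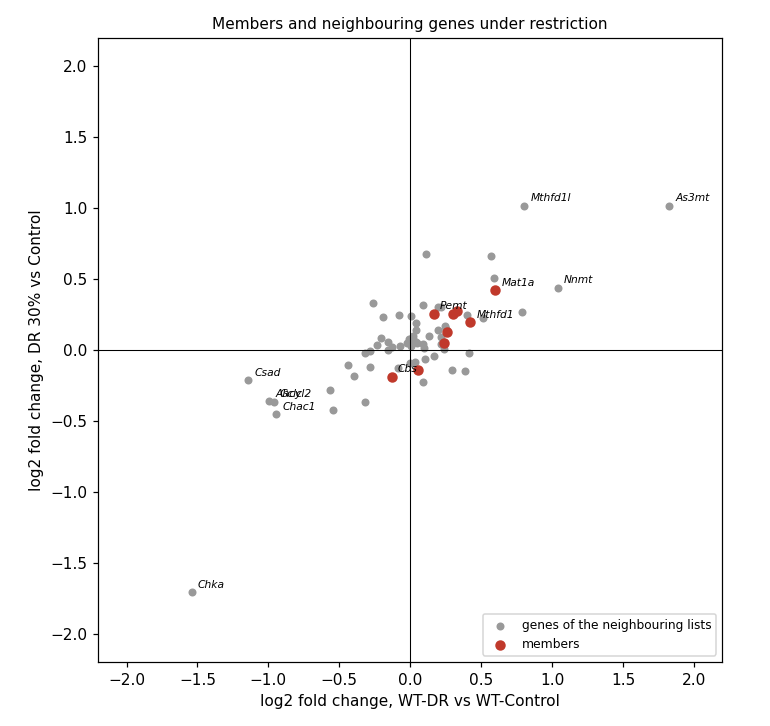
Log2 fold change under restriction in wild-type mice (x-axis) and in Ercc1Δ/- mice (y-axis) for the 9 members (red) and the 64 measured genes of the 6 neighbouring lists (grey). *As3mt* (1.83 and 1.02) and *Chka* (-1.54 and -1.71) lie farthest out, and *Mat1a* (0.60 and 0.42) lies farthest among the members.

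The genes whose values ran most like those of 3 members with the largest range of group means were sought among 10339 genes over the 24 mice, which share groups and diets. *D630004K10Rik* had the highest Pearson r with *Mat1a*, 0.94, with group means of 6.90 and 8.63 in the wild-type groups (WT-Control first), 7.26 in Control, 7.93 with rapamycin and 8.88 in DR 30%. *Sbsn* and *Slc16a7*, a monocarboxylate transporter, followed with 0.92 each. For *Pemt* they were *Pias2* (0.92), *Clybl* (0.92) and *Sin3b* (0.91), and for *Cth* they were *Hps3* (0.83), *Cnep1r1* (0.77) and *Zfp281* (0.77). In *Clybl* the group means were 8.79 and 9.01 in the wild-type groups and 8.13 (Control), 8.15 (rapamycin) and 8.52 (DR 30%) in the others. These are descriptions over mice of 5 groups and carry no test.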

How the data were processed

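The authors measured liver RNA of 24 mice on Affymetrix HT MG-430 PM array plates and, per the methods and the deposited records, normalized the arrays with RMA in the arrayanalysis.org pipeline, so that the deposited values are log2 intensities. The RMA version and the set of arrays normalized at once are not given in the sources used here. The deposit holds each mouse as values of 45141 probe sets, used here, and of 17306 probe sets defined by gene, used as an alternative, which hold 7 of the members. Of the former, 28898 name 1 gene, 551 several, and 15692 are not named here. The only depth of an array is its brightness, and the number of mice limits the precision.

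A linear model of the 5 group means was fitted to all probe sets, without covariates, by limma 3.58.1 (R 4.3.3). P values were adjusted by Benjamini-Hochberg within each of 7 comparisons. A DEG changed at least 1.5-fold at an FDR under 0.05, and calls at any fold change are given beside it. Calling was tested on simulated data. Promoters came from RefSeq. Members, neighbouring lists and markers were chosen with earlier results of these data known. Genes named from a list were its DEGs, at most 3 with the smallest adjusted p in a comparison. *Cdo1*, *Nnmt* in WT-DR, *Enoph1* in WT-DR and *Mat2b* in DR 30% were added after their values were seen. The value of *Chka* in Rapa 14 ppm against Control is also given outside this rule, since it was not a DEG there. The alternatives were the values by gene, only the groups compared, dim probe sets left out, median centring of arrays, quantile normalization once more, robust estimation with a trend of the variance, other fold change thresholds, the second probe set of a gene, and leaving out each mouse.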

Additional observations from a re-analysis of the deposited data

Results flagged for a closer look

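Of 45 sets of values (9 genes in 5 groups), 3 held a mouse far from the others of its group by Dixon's test, where chance gives about 1 in 20. *Cth* in WT-Control was at 11.46 in mouse 401, with a gap to the next mouse of 0.734 of the whole range. *Cth* in Control was at 12.39 in mouse 327, with a gap of 0.863 of the range. *Cbs* in Rapa 14 ppm was at 11.12 in mouse 537, with a gap of 0.919 of the range.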

How the results depend on the processing

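The DEG count of 1 in WT-DR vs WT-Control fell to 0 at a fold change of 2 and ran from 0 to 1 with a mouse left out. It was lost without WT-Control mouse 401, 403 or 404. Without a fold change threshold the counts were 3 for DR 30% vs Control, 5 for WT-DR vs WT-Control, 1 for Control vs WT-Control, 2 for DR 30% vs WT-DR and 2 for Rapa 14 ppm vs DR 30%. The values by gene lack *Ahcy* and *Bhmt*. Over the 7 members they hold, the count at any fold change was higher for WT-DR vs WT-Control, at 5 (4 by probe set). The counts were 1 (2 by probe set) for DR 30% vs Control, 0 (1 by probe set) for Control vs WT-Control and 0 (1 by probe set) for Rapa 14 ppm vs DR 30%. With only the groups compared they were 1 for DR 30% vs Control and 0 for Rapa 14 ppm vs DR 30%, where median centring gave 1. With a mouse left out, they ran from 2 to 3 for DR 30% vs Control, from 5 to 6 for WT-DR vs WT-Control, from 1 to 2 for DR 30% vs WT-DR and from 0 to 2 for Rapa 14 ppm vs DR 30%, with 0 without DR 30% mouse 362 or 366 or Rapa 14 ppm mouse 535 or 537.

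Estimates near 0 changed sign. In Control vs WT-Control, *Mthfd1* was -0.000504 by its second probe set. In DR 30% vs WT-DR, *Cbs* was -0.0397 by gene and -0.0596 by its second probe set. With a mouse left out, the ranges that crossed 0 were -0.0781 to 0.103 for *Cbs* and -0.0229 to 0.00749 for *Mat1a* in DR 30% vs WT-DR, -0.0219 to 0.0525 for *Gnmt* and -0.117 to 0.0151 for *Pemt* in Rapa 14 ppm vs Control, -0.14 to 0.0179 for *Cth* in Rapa 14 ppm vs DR 30%, and -0.151 to 0.0300 for *Cbs* and -0.121 to 0.0404 for *Cth* in the interaction. The interaction of *Pemt* was -0.0159 by gene. Of 1512 single-gene values with a mouse left out, 1453 kept direction and call, 44 lost and 4 gained it and 11 changed sign. Of 427 under the other alternatives, 412 kept both, 9 lost and 2 gained the call and 4 changed sign. The cause was not tested. A gene without a second probe set kept its main value under that alternative. Leaving out a mouse outside the groups compared left the estimate the same, and only its adjusted p could change. The counts of kept results therefore include values that could not differ or could not change sign. No paired analysis was possible because animal numbers are not shared between groups. The number of mice, 4 or 5 a group, limits the precision.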
